A study of Mus musculus with 12 samples.

Results

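The 34 genes described here encode the transporters and enzymes that carry glucose through glycolysis and the pentose phosphate pathway, with the lactate carriers, 2 pyruvate dehydrogenase kinases and the hypoxia factor Hif1a. They were chosen by gene name on the array, where Pkm is the current name of the gene listed as Pkm2. They take up 54 of the 55681 probes, and 33 of the 34 are among the 28261 genes kept for testing. Pfkfb1, which makes a liver and muscle form of the regulatory PFKFB enzyme, was not well above background on any of the 12 arrays and was not tested, and 30 members were well above background on all 12.

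RNA was measured on 12 one-colour Agilent arrays, 3 in each of 4 groups. The op/op group held cells from the kidneys of mice homozygous for the op mutation of Csf1, the gene of macrophage colony-stimulating factor (M-CSF), in the strain B6C3Fe a/a-Csf1op/J, and the WT group held kidney cells from wild-type mice of that strain. All of these mice, op/op and WT, were given glyoxylate (80 mg/kg, 6 days), which loads the kidney with oxalate, and no untreated mice were analysed here. In both groups the cells had been sorted magnetically for CD11b and CD11c, myeloid surface proteins. The M1 and M2 groups were macrophages grown from bone marrow, M1 with lipopolysaccharide (LPS) and GM-CSF and M2 with interleukin 4 and M-CSF. All values are log2 signals relative to the 75th percentile of the same array, and a difference of 1 is a 2-fold change. Nothing in the labels ties a replicate to its own animal or culture. The p-values therefore measure only the spread between these samples, possibly a technical one, and the small number of arrays limits the precision.

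Csf1 itself stood at -0.94, -0.04 and -0.52 on the op/op arrays, against -0.19, -0.16 and 0.00 on the WT arrays (-0.39 ± 0.21, SE, limma adjusted p = 0.127), and a transcript level does not check the genotype. Summed linear signals of 11 macrophage markers ran between 61.5 and 67.2 on op/op arrays and between 102 and 211 on WT arrays (11 of 11 well above background in both), against 215 to 242 on M1 and 232 to 237 on M2 arrays. The sorted cells were not free of other cell types by their markers. The sum of 13 proximal tubule markers was 26.3 to 74.8 on op/op and 125 to 257 on WT arrays, and that of 6 T cell markers was 57.5 to 80.0 on op/op and 14.6 to 42.8 on WT arrays. WT replicate 1 was alone on its slide, the other 5 renal arrays shared another slide and the 6 bone marrow arrays one of their own. WT and M1 arrays lay in the upper row of their slides and op/op and M2 arrays in the lower row, so that row and group cannot be told apart in either comparison. The renal arrays varied more than the bone marrow arrays (median residual SD 0.37 against 0.16), and the fit pools both.

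Glycolysis splits glucose into pyruvate in the cytosol. Its preparatory steps spend ATP to trap and split the sugar, its payoff steps return ATP and NADH, and lactate dehydrogenase regenerates the NAD needed to go on. Tpi1, whose isomerase step closes the preparatory phase and yields neither ATP nor NADH, is counted below with the payoff genes. The pentose phosphate pathway branches off after the first step. Its oxidative arm makes NADPH, which phagocytes use for the oxidative burst and for glutathione, and its non-oxidative arm shuttles sugar phosphates back to glycolysis. Macrophages activated with LPS are known for a high glycolytic rate with Hif1a as one of its regulators, and those activated with interleukin 4 for greater use of mitochondrial respiration.

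Hif1a binds a short core, ACGTG or GCGTG, in the promoters of many of these genes, and these letters were looked for on both strands in RefSeq promoter windows (GRCm38.p6) that run from 250 bases before to 50 bases after each start. Windows were found for 33 of the 34 members, 50 windows in all. ACGTG lay in 42.0% of the member windows, against 19.6% of the 32851 windows of all genes, and either core in 76.0% against 43.8%. A palindromic CACGTG counts as a match on each strand. The match is a description of letters and not of binding. The windows below, 5′ to 3′ on the strand of the gene with the matches in capitals, belong to members that the comparisons turn on: 3 genes that were higher in M1 than M2 cells (Slc2a1 at chr4:119108495-119108794, plus strand; Slc16a3 at chr11:120948817-120949116, plus strand; Pfkfb3 at chr2:11502041-11502340, minus strand), 2 that were lower (Pfkfb4 at chr9:108991652-108991951, plus strand; Tkt at chr14:30548881-30549180, plus strand), and Ldha (chr7:46845554-46845853, plus strand), which did not pass in that comparison.
Slc2a1: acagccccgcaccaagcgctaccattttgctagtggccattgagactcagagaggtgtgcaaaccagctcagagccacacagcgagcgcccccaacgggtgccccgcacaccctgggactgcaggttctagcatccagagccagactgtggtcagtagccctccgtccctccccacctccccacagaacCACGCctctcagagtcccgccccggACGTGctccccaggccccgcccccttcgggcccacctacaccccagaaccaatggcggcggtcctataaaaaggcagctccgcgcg
Slc16a3: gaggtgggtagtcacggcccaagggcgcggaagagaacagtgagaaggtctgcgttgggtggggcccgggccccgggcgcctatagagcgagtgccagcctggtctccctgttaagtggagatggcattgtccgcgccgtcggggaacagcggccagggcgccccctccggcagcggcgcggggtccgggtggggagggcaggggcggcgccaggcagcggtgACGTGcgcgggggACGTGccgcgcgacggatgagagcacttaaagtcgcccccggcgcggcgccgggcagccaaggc
Pfkfb3: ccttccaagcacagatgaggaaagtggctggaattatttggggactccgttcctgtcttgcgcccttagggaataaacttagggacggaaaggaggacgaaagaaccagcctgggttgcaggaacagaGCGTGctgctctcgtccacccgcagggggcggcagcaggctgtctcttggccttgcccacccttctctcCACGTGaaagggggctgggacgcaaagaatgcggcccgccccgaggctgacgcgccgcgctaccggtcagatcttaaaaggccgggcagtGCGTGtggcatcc
Pfkfb4: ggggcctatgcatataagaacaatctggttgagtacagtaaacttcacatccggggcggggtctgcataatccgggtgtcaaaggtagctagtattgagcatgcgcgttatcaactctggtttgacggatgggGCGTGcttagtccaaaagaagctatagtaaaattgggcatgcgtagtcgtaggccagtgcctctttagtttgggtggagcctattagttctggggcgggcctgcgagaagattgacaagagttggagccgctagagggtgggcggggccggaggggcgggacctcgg
Tkt: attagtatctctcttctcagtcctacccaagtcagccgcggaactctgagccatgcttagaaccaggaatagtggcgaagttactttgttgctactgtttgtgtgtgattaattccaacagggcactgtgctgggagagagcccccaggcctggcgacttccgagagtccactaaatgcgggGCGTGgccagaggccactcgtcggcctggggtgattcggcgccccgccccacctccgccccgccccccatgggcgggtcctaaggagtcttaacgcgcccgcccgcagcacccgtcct
Ldha: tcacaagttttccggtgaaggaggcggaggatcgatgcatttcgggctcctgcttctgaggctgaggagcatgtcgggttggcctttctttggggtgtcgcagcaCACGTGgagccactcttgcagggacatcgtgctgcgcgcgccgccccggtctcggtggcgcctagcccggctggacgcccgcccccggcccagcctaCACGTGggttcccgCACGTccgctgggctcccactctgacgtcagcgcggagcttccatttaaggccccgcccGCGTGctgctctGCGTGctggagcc
The Slc16a3 window held 2 matches, both ACGTG, and the Pfkfb3 window 4, of which 2 were ACGTG. The Slc2a1 window held 1 match of each core. The Pfkfb4 and Tkt windows held 1 GCGTG each and 0 ACGTG. The Ldha window held 7 matches, the most of the 50 member windows. For Pfkfb3 and Ldha the window with more matches is shown. The other window of Pfkfb3 held 1 match and that of Ldha 2. Other genes higher in M1 cells held no ACGTG in any window: Slc2a6, Pfkl and Eno1 had GCGTG alone, and Tpi1 and Eno2 had 0 matches of either core.

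Op/op kidney cells had less signal than WT kidney cells for most members. Of the 33 members tested, 24 fell and 3 rose, where over all 27062 genes tested 27.8% were called lower and 32.5% higher, 60.2% in all (limma, Benjamini-Hochberg adjusted p under 0.05). The median difference of the members was -0.87, against 0.19 over all genes. In 18 members every op/op array lay below every WT array, and in 3 every op/op array lay above, where 25.4% and 33.5% of all genes were separated in these directions. The 24 and the 18 both include Pdk1 and Rpia, which no op/op array measured well above background and which have no settled size. At a threshold of 2-fold as well, 12 fell, Rpia among them, and 1 rose (12.3% and 14.4% of all genes). WT replicate 4 stood nearest to the op/op mean in 24 of the 27 called members. Without that array 27 members fell and 4 rose, where 8057 and 9540 of the 27062 genes did. Once slide entered the fit, only the slide with 5 renal arrays was compared, and 21 members fell and 2 rose (6473 and 7877 of all genes). In a fit of only the renal groups, which does not borrow the smaller spread of the bone marrow arrays, 15 fell and 0 rose (4751 and 5608 of all genes). In the sorted cells, fewer cells of a type and less RNA per cell cannot be told apart. Macrophage markers were lower on op/op arrays too (9 of 11 fell, 0 rose, median difference -1.52), as were proximal tubule markers (12 of 13 fell, 0 rose, median -1.82). Of 8 tested distal nephron and collecting duct markers 4 rose and 1 fell (median 0.84). Of 4 tested T cell markers 3 rose and 0 fell (median 1.36), and of 5 B cell markers 4 rose and 1 fell (median 1.06). The part of these cell types in the differences below was not tested.

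**Figure D1:**
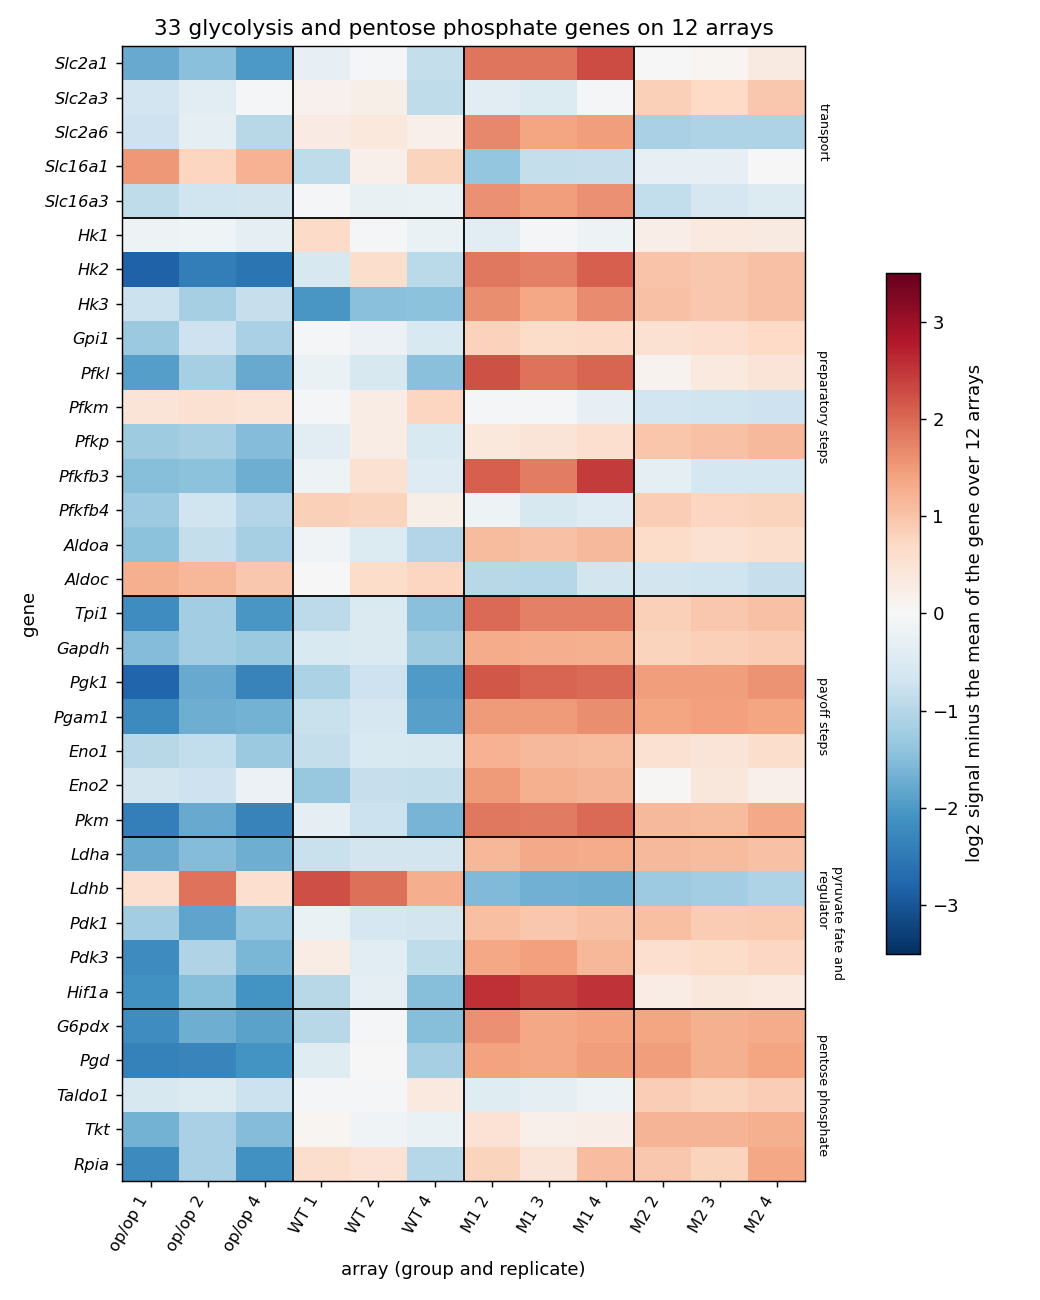
Heat map of 33 genes (rows, grouped by their place in the pathway) on 12 arrays (columns: op/op, WT, M1, M2), coloured by log2 signal minus the mean of the gene over the 12 arrays. M1 cells had the highest group mean for 22 genes and op/op cells the lowest for 25.

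Glucose enters through the Slc2a facilitators. Slc2a1 encodes GLUT1, the main glucose transporter of activated macrophages. It stood at 0.47, 0.77 and 0.23 on the op/op arrays, against 1.97, 2.17 and 1.42 on the WT arrays. Every op/op array lay below every WT array, and the difference was -1.37 ± 0.23 (2.58-fold, limma adjusted p = 0.00111; probe at chr4:118809864-118809923, mm9). Slc2a6, a lysosomal hexose transporter of macrophages, was at -0.20, 0.19 and -0.46 in op/op cells and 0.81, 0.88 and 0.69 in WT cells. It fell 1.93-fold (limma adjusted p = 0.00184). Slc2a3, which encodes the high-affinity GLUT3, overlapped between the groups, at -1.60, -1.30 and -0.97 in op/op and -0.79, -0.73 and -1.83 in WT cells (-0.17 ± 0.28, adjusted p = 0.601).

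The lactate carriers went in opposite directions. Slc16a3 (MCT4), the low-affinity exporter of glycolytic cells, was at 0.27, 0.46 and 0.50 in op/op cells, below all WT values of 1.10, 0.89 and 0.92, and fell by 0.56 on the log2 scale (SE 0.16, limma adjusted p = 0.0101). The Slc16a3 call ended when the fit held the renal groups alone (limma adjusted p = 0.0772). Slc16a1 (MCT1), which carries lactate in either direction, was at -0.75, -1.53 and -1.06 in op/op cells and -3.17, -2.10 and -1.50 in WT cells. WT replicate 4 was within the op/op range, and the rise of 1.14 ± 0.36 (limma adjusted p = 0.0180) did not pass within the slide of 5 renal arrays (0.69, adjusted p = 0.0543).

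Hk2 had the largest fall of the members. This inducible hexokinase of proliferating and activated cells binds mitochondria and commits glucose to the cell. It stood at -2.34, -1.94 and -2.06 on the op/op arrays, against -0.09, 1.11 and -0.46 on the WT arrays. The groups were far apart although the WT arrays spread widely (-2.30 ± 0.32, 4.92-fold, limma adjusted p = 0.000604; probe at chr6:82675056-82675115, mm9). Hk3, the hexokinase of granulocytes and monocytes, was separated the other way, with 2.41, 2.0 and 2.34 in op/op and 1.12, 1.69 and 1.73 in WT cells (0.73 ± 0.19, limma adjusted p = 0.00851). Its call ended when the fit held the renal groups alone (adjusted p = 0.0561). Neutrophil markers, listed beside it because granulocytes express Hk3, summed to 36.3 to 52.1 on op/op and 27.0 to 73.0 on WT arrays, and 3 of 9 rose and 1 fell. Monocyte markers summed to 18.0 to 28.9 on op/op and 26.1 to 35.7 on WT arrays, and 2 of 5 fell and 0 rose. The part of these cell types in the Hk3 difference was not tested. Hk1, the hexokinase of most tissues, overlapped between the groups (-0.34 ± 0.22, adjusted p = 0.182).

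Both inducible PFKFB enzymes fell. Pfkfb3 and Pfkfb4 make fructose 2,6-bisphosphate, the strongest activator of phosphofructokinase. Pfkfb3 was at 0.58, 0.64 and 0.36 in op/op cells and 1.90, 2.60 and 1.63 in WT cells (-1.51 ± 0.25, limma adjusted p = 0.00113). Pfkfb4 was at -1.51, -0.95 and -1.28 in op/op cells and 0.59, 0.53 and -0.05 in WT cells (-1.60 ± 0.21, limma adjusted p = 0.000505). Neither gene had an op/op array within the WT range, and both kept their calls in every alternative fit and at 2-fold.

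Of the phosphofructokinases, the rate-setting enzymes themselves, the platelet form fell and the muscle form did not pass. Pfkp was at -0.15, -0.09 and -0.43 in op/op and 0.70, 1.35 and 0.56 in WT cells (-1.09 ± 0.21, limma adjusted p = 0.00184). Pfkl, the liver form, also fell (-0.87 ± 0.30, limma adjusted p = 0.0265), but its WT values of 1.74, 1.40 and 0.50 reached into the op/op values of 0.03, 0.81 and 0.21. Its call ended within the slide of 5 renal arrays (-0.60, adjusted p = 0.101) and when the fit held the renal groups alone (adjusted p = 0.0790). Pfkm was at 0.17 ± 0.19 (adjusted p = 0.443). Gpi1, the isomerase after hexokinase, fell by 0.79 (limma adjusted p = 0.00485), and its 3 probes, which overlap in sequence and are not independent, ranged from -0.79 to -0.64.

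The aldolases split. Aldoa, the enzyme of most tissues, was at 5.24, 5.85 and 5.51 in op/op cells and 6.57, 6.21 and 5.66 in WT cells (-0.61 ± 0.23, limma adjusted p = 0.0370). The groups overlapped, and the call ended within the slide of 5 renal arrays (adjusted p = 0.128) and when the fit held the renal groups alone (adjusted p = 0.127). Aldoc, known as the brain form, was at 1.72, 1.64 and 1.41 in op/op cells, above the WT values of 0.46, 1.11 and 1.21, and rose by 0.67 ± 0.21 (limma adjusted p = 0.0171). That call ended when the fit held the renal groups alone and without op/op replicate 1, so that 0 of the 3 members that rose kept their calls throughout.

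**Figure D2:**
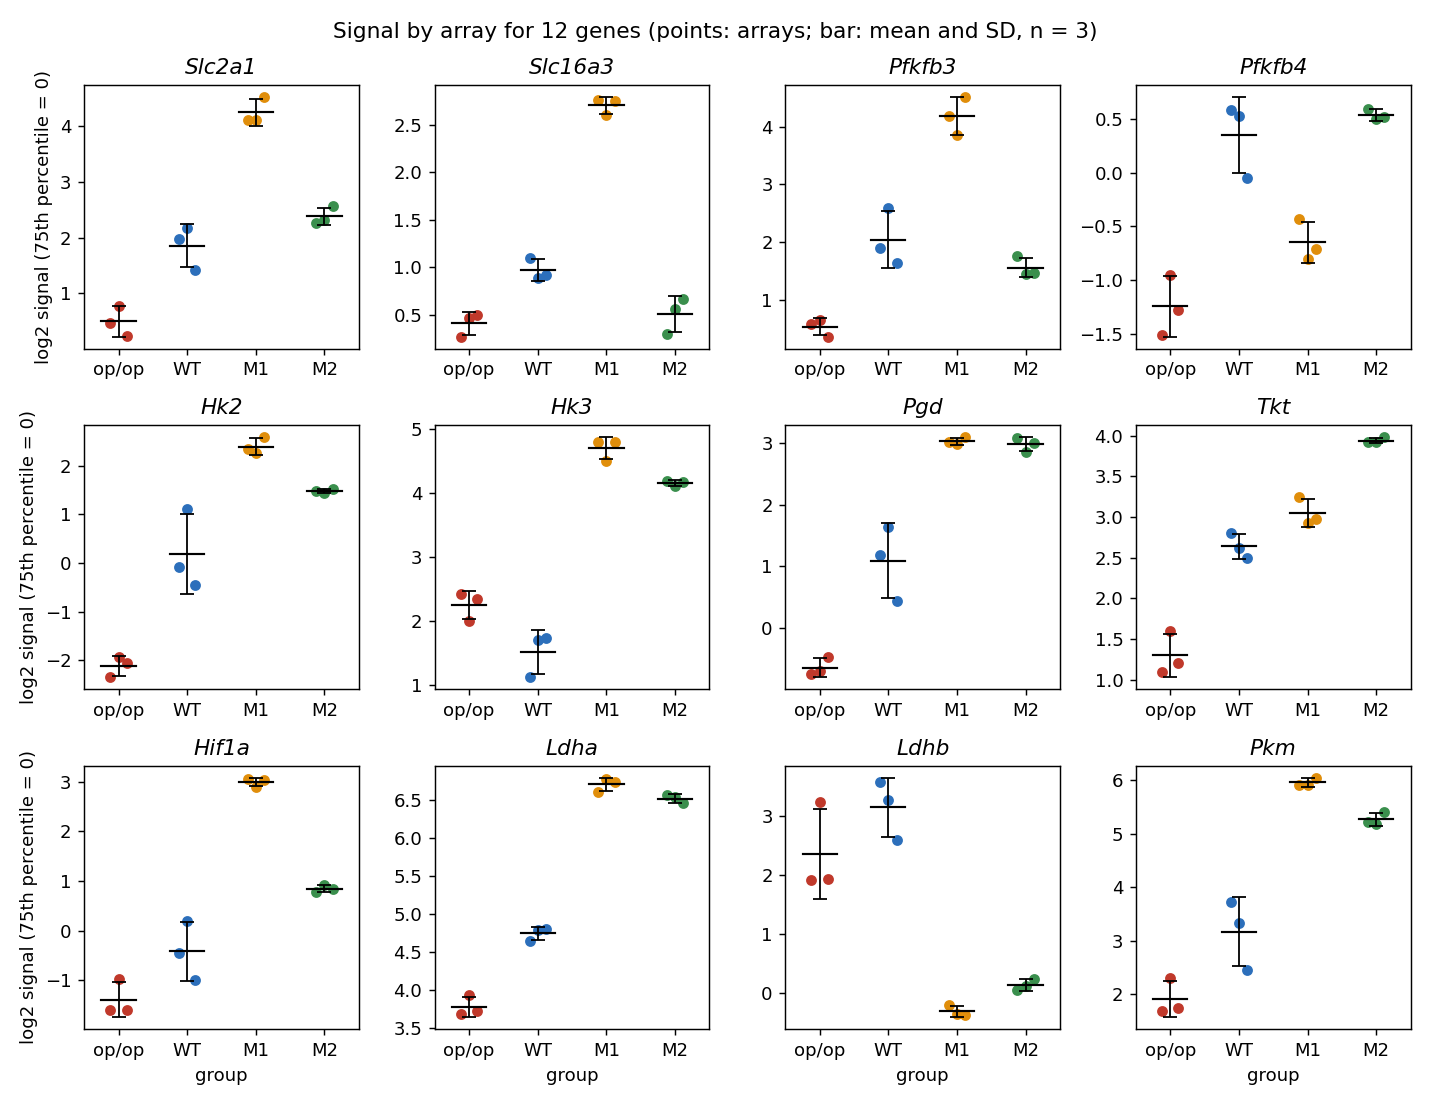
Log2 signal relative to the 75th percentile of the array (vertical axes, 1 scale for each gene) for 12 genes in op/op, WT, M1 and M2 cells. Points are arrays and bars are means with SD, n = 3. Hk2, Pgd and Tkt had every op/op array below every WT array, and Hif1a was at 2.90 to 3.06 on the M1 arrays against 0.78 to 0.92 on the M2 arrays.

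Of the 7 genes counted with the payoff steps, Tpi1 among them, 5 fell and 0 rose, with a median difference of -0.77. Only Pkm, Eno1 and Eno2 had separated groups. Pkm, the pyruvate kinase of macrophages and most other cells, which makes ATP and pyruvate at the end of the pathway, was at 1.69, 2.31 and 1.75 in op/op cells and 3.73, 3.33 and 2.46 in WT cells (-1.25 ± 0.28, 2.39-fold, limma adjusted p = 0.00413). Pgk1, the kinase of the first ATP-yielding step, was at 1.19, 2.19 and 1.61 in op/op cells and 2.86, 3.23 and 1.97 in WT cells (-1.02 ± 0.31, limma adjusted p = 0.0144). WT replicate 4 lay within the op/op range of Pgk1, as it also did for Tpi1, Gapdh and Pgam1. Tpi1, the triose isomerase (-0.85), Gapdh, which oxidizes the triose and is often used as a reference gene (-0.59), and Pgam1, the mutase (-0.77), fell as well. Gapdh lost its call within the slide of 5 renal arrays (adjusted p = 0.0701), as did Pgam1 (adjusted p = 0.124). The 7 Gapdh probes ranged from -0.73 to -0.09, and with their mean Gapdh did not pass (-0.38, limma adjusted p = 0.0595). When the fit held the renal groups alone, the calls of Pgk1 (limma adjusted p = 0.0569) and Tpi1 (limma adjusted p = 0.0744) ended. So did those of Gapdh and Pgam1 (limma adjusted p = 0.111 for each). The enolases did not pass. Eno1 was at 3.83, 3.94 and 3.50 in op/op and 3.95, 4.26 and 4.23 in WT cells (-0.39 ± 0.16, adjusted p = 0.0537), and Eno2, the neuronal form, at -1.48, -1.57 and -1.05 in op/op and -2.15, -1.64 and -1.68 in WT cells (0.46 ± 0.20, adjusted p = 0.0651).

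Pyruvate becomes lactate through lactate dehydrogenase, and pyruvate dehydrogenase kinases keep it out of mitochondria. Ldha, the subunit that favours lactate formation, was at 3.68, 3.93 and 3.72 in op/op cells and 4.65, 4.79 and 4.80 in WT cells. The arrays of each group lay close together and the gap was wide (-0.97 ± 0.14, limma adjusted p = 0.000704). Ldhb, the subunit that favours lactate use and is high in oxidative tissue such as kidney tubule, was at 1.91, 3.23 and 1.93 in op/op cells and 3.58, 3.27 and 2.60 in WT cells (-0.79 ± 0.34, adjusted p = 0.0588). Pdk3 was at -3.50, -2.34 and -2.90 in op/op cells, well above background on 2 of 3 arrays, and at -1.04, -1.68 and -2.18 in WT cells (-1.28 ± 0.31, limma adjusted p = 0.00543). With another background correction (normexp) the difference was -0.41 (adjusted p = 0.0572). No op/op array measured Pdk1 well above background, and at -4.13, -4.77 and -4.29 there and -3.17, -3.50 and -3.57 in WT cells its difference of -0.98 (limma adjusted p = 0.00195) turned to 0.18 with normexp, so it has no settled size. Hif1a was at -1.60, -0.98 and -1.59 in op/op cells and -0.45, 0.20 and -0.99 in WT cells (-0.97 ± 0.27, limma adjusted p = 0.0102), and the groups touched between op/op replicate 2 and WT replicate 4. The Hif1a call ended when the fit held the renal groups alone (limma adjusted p = 0.0503).

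All 5 pentose phosphate genes fell, and all 5 had separated groups, but Rpia lost its call with normexp (-0.14, adjusted p = 0.540) and Taldo1 when the fit held the renal groups alone (adjusted p = 0.0519). Pgd, the second NADPH-making dehydrogenase, was at -0.75, -0.70 and -0.47 in op/op cells and 1.19, 1.64 and 0.44 in WT cells (-1.73 ± 0.25, 3.32-fold, limma adjusted p = 0.000682; probe at chr4:148524293-148524352, mm9). G6pdx, the dehydrogenase that opens the pathway, was at -0.18, 0.26 and 0.10 in op/op cells and 1.01, 1.92 and 0.49 in WT cells (-1.08 ± 0.29, limma adjusted p = 0.00902). For both genes WT replicate 4 was the WT array nearest to the op/op values. In the non-oxidative arm, Tkt (transketolase) was at 1.09, 1.60 and 1.21 in op/op cells and 2.80, 2.62 and 2.50 in WT cells (-1.34 ± 0.17, limma adjusted p = 0.000490). Taldo1 (transaldolase) was at 2.88, 2.96 and 2.70 in op/op cells and 3.41, 3.39 and 3.78 in WT cells (-0.68 ± 0.16, limma adjusted p = 0.00458). Taldo1 was higher on WT replicate 4 than on the other WT arrays. Rpia, the ribose 5-phosphate isomerase, was not well above background on the 3 op/op arrays (-5.37, -4.28 and -5.27) and stood at -2.52, -2.64 and -4.13 in WT cells (limma adjusted p = 0.00376). With each op/op array set to the lowest signal well above background where the probe lay under it, Rpia was 1.13-fold higher in WT cells. The normexp difference of -0.14 was smaller still, so Rpia has no settled size.

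Across roles, 12 of the 24 members that fell kept their call in every alternative apart from the 2-fold threshold: Slc2a1, Slc2a6, Hk2, Gpi1, Pfkp, Pfkfb3, Pfkfb4, Pkm, Ldha, G6pdx, Pgd and Tkt. Of these, Slc2a6, Gpi1 and Ldha differed by less than 2-fold. All 12 members with several probes had the same sign on all of them in this comparison. The probes of Gpi1, Slc16a3 and Pgk1 overlap in sequence, so their agreement is not independent. Without op/op replicate 1, 18 members fell and 1 rose (6101 and 5888 of the 27062 genes).

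Further genes of the pathway, outside the 34, gave mixed counts. Of 9 tested other pentose phosphate genes 7 fell and 0 rose, led by Prps1 (-1.55 ± 0.23), which makes the ribose donor for nucleotides. Of 21 other glycolysis genes 11 fell and 2 rose. Among those that fell, Pfkfb2, a further PFKFB gene, and Slc2a5, a fructose transporter gene that kidney tubule cells also express, were not well above background on the 3 op/op arrays, and no size is given for them. Of 13 genes for pyruvate entry into mitochondria 5 fell and 0 rose, including Mpc1 (-0.95), a subunit of the pyruvate carrier. Of 19 tested genes of the HIF pathway 11 fell and 3 rose, with Ddit4, a stress-induced inhibitor of mTORC1, at -1.77 and Egln2, an oxygen-sensing prolyl hydroxylase, at 1.18.

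M1 and M2 macrophages differed in both directions. In M1 cells 9 members were higher and 4 lower, where 8.94% and 9.62% of the 26174 genes tested were called in these directions. The median difference of the members was 0.45, against -0.01 over all genes. In 19 members every M1 array lay above every M2 array and in 8 every M1 array lay below, against 23.8% and 27.4% of all genes. At 2-fold as well, 7 members were higher and 3 lower (6.2% and 4.67% of all genes). With only the M1 and M2 arrays in the fit, which uses their smaller spread, 17 members were higher and 8 lower. Over all 26174 genes that fit called 4441 higher and 5284 lower. Macrophage marker sums were close in the 2 groups (215 to 242 in M1 and 232 to 237 in M2 cells). Markers of dividing cells summed to 3.86 to 4.24 in M1 and 9.13 to 10.1 in M2 cells (5 of 6 lower in M1, 0 higher). Fibroblast and mural cell markers summed to 78.8 to 111 in M1 and 54.7 to 64.7 in M2 cells (4 of 7 higher, 0 lower). The part of these in the differences was not tested.

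**Figure D3:**
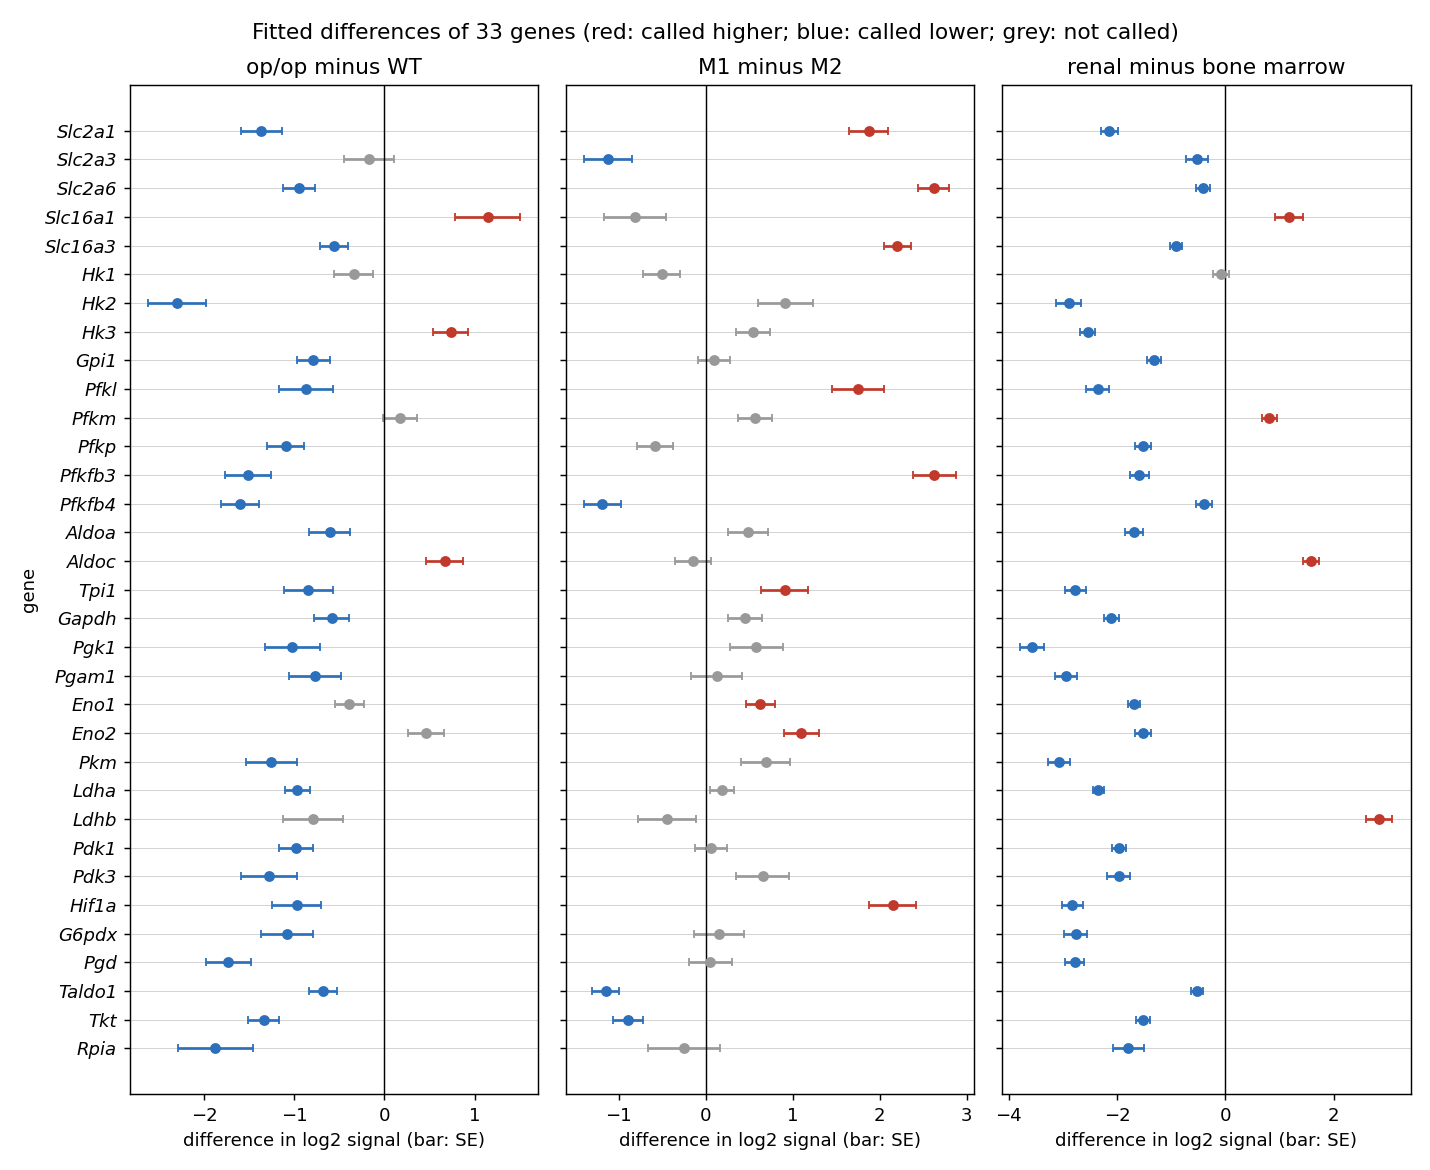
Fitted differences in log2 signal (horizontal axes, with SE) of 33 genes in the op/op minus WT, M1 minus M2 and renal minus bone marrow comparisons. Red points were called higher, blue points lower and grey points not called: 24 members fell in op/op cells and 4 in M1 cells, and 28 were lower in renal cells.

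Of the 5 transporters of glucose and lactate, 3 were higher in M1 cells and 1 was lower. Slc2a6 stood at 2.21, 1.91 and 1.98 on the M1 arrays, against -0.62, -0.57 and -0.56 on the M2 arrays, a 6.14-fold rise (2.62 ± 0.18, limma adjusted p = 7.94e-07). Slc16a3 was at 2.76, 2.60 and 2.75 in M1 cells and 0.30, 0.56 and 0.67 in M2 cells (2.20 ± 0.16, 4.59-fold, limma adjusted p = 1.10e-06; probe at chr11:120820023-120820082, mm9). Slc2a1 was at 4.11, 4.12 and 4.53 in M1 cells and 2.27, 2.31 and 2.56 in M2 cells (1.88 ± 0.22, limma adjusted p = 9.09e-05). GLUT3 ran the other way. Slc2a3 was at -1.30, -1.41 and -1.02 in M1 cells, below the M2 values of -0.11, -0.25 and 0.00 (-1.12 ± 0.28, limma adjusted p = 0.0132), and lost its call without M1 replicate 3. Slc16a1 was at -3.62, -3.11 and -3.08 in M1 cells and -2.56, -2.55 and -2.26 in M2 cells, separated but not passing (-0.81 ± 0.36, adjusted p = 0.150).

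The pair of PFKFB enzymes was split between the polarizations. Pfkfb3 was at 4.18, 3.86 and 4.52 in M1 cells and 1.75, 1.45 and 1.47 in M2 cells, a 6.17-fold rise (2.63 ± 0.25, limma adjusted p = 1.31e-05; probe at chr2:11393453-11393512, mm9), and a second probe gave 2.67. Pfkfb4 was at -0.43, -0.80 and -0.71 in M1 cells and 0.60, 0.50 and 0.52 in M2 cells, a 2.28-fold fall (-1.19 ± 0.21, limma adjusted p = 0.00154), and a second probe gave -1.06. The groups did not overlap for either gene. Of the phosphofructokinases 1 passed. Pfkl was at 4.20, 3.86 and 3.99 in M1 cells and 2.08, 2.30 and 2.42 in M2 cells (1.75 ± 0.30, 3.36-fold, limma adjusted p = 0.00122). Pfkp was lower on every M1 array without passing (-0.59 ± 0.20, adjusted p = 0.0687), and Pfkm was higher on every M1 array without passing (0.56 ± 0.19, adjusted p = 0.0635).

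The hexokinases did not pass on the probes that stand for them. Hk2 was at 2.33, 2.26 and 2.58 in M1 cells and 1.48, 1.43 and 1.51 in M2 cells (0.91 ± 0.32, adjusted p = 0.0667), and Hk3 at 4.79, 4.50 and 4.80 in M1 cells and 4.18, 4.10 and 4.17 in M2 cells (0.55 ± 0.19, adjusted p = 0.0747). The groups were separated for both genes, and both passed with only the M1 and M2 arrays in the fit. Hk1 depended on its probe. The brightest, which the files place on chromosome 5 (chr5:22118404-22118463, mm9) although the gene lies on chromosome 10, gave -0.51 ± 0.21 (adjusted p = 0.133). The brightest probe on chromosome 10 (chr10:61731856-61731915, mm9) was at 4.13, 4.04 and 4.07 in M1 cells and 3.20, 3.09 and 3.23 in M2 cells (0.91), passing when it stood for the gene (limma adjusted p = 0.0219), and the remaining probe gave 0.87. With only the M1 and M2 arrays in the fit, the chromosome 5 probe passed in its own direction (limma adjusted p = 0.0125). No direction is given for Hk1 on that account.

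**Figure D4:**
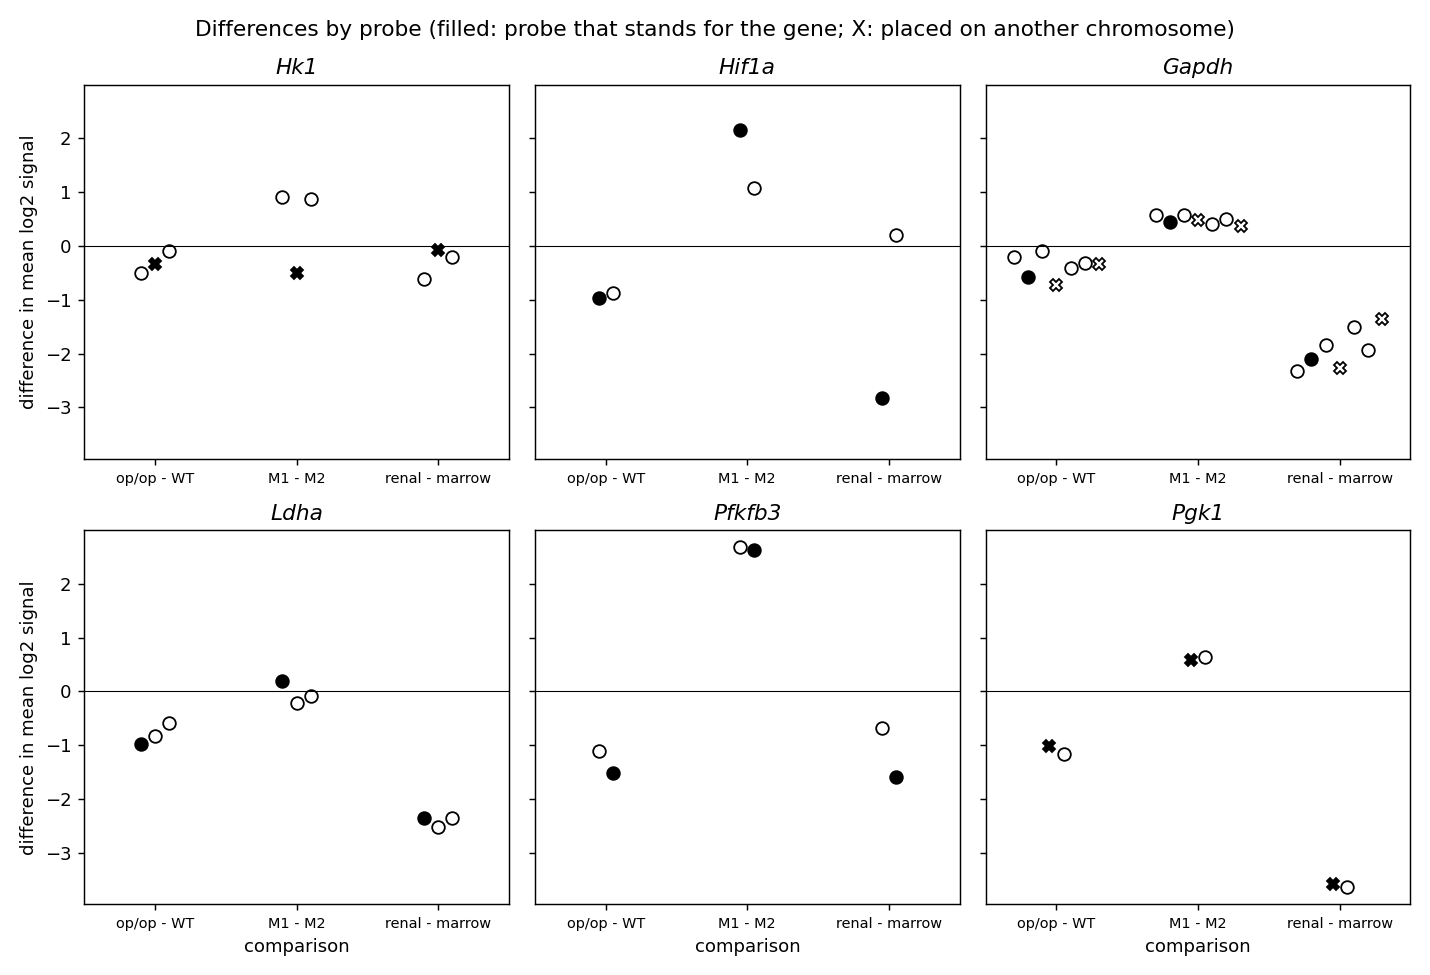
Difference in mean log2 signal (vertical axes) for each probe of 6 genes in the op/op minus WT, M1 minus M2 and renal minus bone marrow comparisons. Filled symbols are the probes that stand for the gene and X marks probes placed on another chromosome. The probes of Hk1 disagreed in sign in M1 minus M2 (-0.51 to 0.91) and those of Hif1a in renal minus bone marrow (-2.82 to 0.21), while the 7 probes of Gapdh kept 1 sign in each comparison.

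All 7 genes counted with the payoff steps, Tpi1 among them, were higher on every M1 array than on any M2 array, and 3 of them passed. Eno2 was at 0.66, 0.42 and 0.35 in M1 cells and -0.78, -0.43 and -0.66 in M2 cells (1.10 ± 0.20, limma adjusted p = 0.00209). Tpi1 was at 5.56, 5.36 and 5.36 in M1 cells and 4.42, 4.53 and 4.61 in M2 cells (0.91 ± 0.27, limma adjusted p = 0.0359), and Eno1 at 6.02, 5.93 and 5.91 in M1 cells and 5.33, 5.24 and 5.41 in M2 cells (0.63 ± 0.16, limma adjusted p = 0.0169). Tpi1 lost its call whichever single M1 or M2 array was left out, and Eno1 in 4 of those 6 cases and with the replicate number as a block. The only Eno1 probe is placed on chromosome 2, although the gene lies on chromosome 4, and no other probe could check it. The differences of Pkm (0.69, adjusted p = 0.119), Pgk1 (0.58, adjusted p = 0.237), Gapdh (0.45, adjusted p = 0.150) and Pgam1 (0.12, adjusted p = 0.850) did not pass.

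Hif1a rose 4.43-fold in M1 cells. It stood at 3.06, 2.90 and 3.03 on the M1 arrays, against 0.78, 0.92 and 0.84 on the M2 arrays (2.15 ± 0.27, limma adjusted p = 0.000123; probe at chr12:75047269-75047329, mm9). A second, dimmer probe (chr12:75033965-75034024, mm9) gave 1.07. Lactate dehydrogenase did not pass. Ldha was at 6.60, 6.77 and 6.73 in M1 cells and 6.56, 6.53 and 6.45 in M2 cells (0.19 ± 0.14, adjusted p = 0.443), and its 3 probes ranged from -0.21 to 0.19. Ldhb was lower on every M1 array without passing (-0.45 ± 0.33, adjusted p = 0.434). Pdk1 (0.06, adjusted p = 0.890) and Pdk3 (0.65, adjusted p = 0.178) did not pass either. Of 21 tested genes of the HIF pathway 7 were higher in M1 cells and 1 lower, with Bnip3, a mitophagy receptor, at 2.40 ± 0.25, Egln3, a prolyl hydroxylase that is itself induced by hypoxia, at 1.50, and Ero1a, an oxidase of the endoplasmic reticulum, at 1.37.

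Of the 5 pentose phosphate genes 2 were lower in M1 cells and 0 higher. In the oxidative arm G6pdx was at 3.59, 3.33 and 3.40 in M1 cells and 3.36, 3.22 and 3.29 in M2 cells (0.15 ± 0.29, adjusted p = 0.811), and Pgd at 3.02, 2.98 and 3.09 in M1 cells and 3.08, 2.86 and 3.0 in M2 cells (0.05 ± 0.25, adjusted p = 0.935). Both genes overlapped between the groups. In the non-oxidative arm Taldo1 was at 3.03, 3.12 and 3.26 in M1 cells and 4.31, 4.24 and 4.31 in M2 cells, a 2.22-fold fall (-1.15 ± 0.16, limma adjusted p = 0.000252). Tkt was at 3.24, 2.92 and 2.97 in M1 cells and 3.92, 3.92 and 3.98 in M2 cells, a 1.86-fold fall (-0.90 ± 0.17, limma adjusted p = 0.00297). Rpia overlapped (-0.25 ± 0.41, adjusted p = 0.768). Of 9 tested other pentose phosphate genes 3 were lower in M1 cells and 0 higher, Prps1 (-2.42 ± 0.23), Prps2 (-1.58) and Pgls (-0.68), the lactonase of the oxidative arm. The first 2 feed ribose phosphate to nucleotide synthesis. The dividing cell markers given above were lower in M1 cells as well, and their part in the Prps1 and Prps2 differences was not tested.

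Read side by side, the op/op against WT and M1 against M2 differences of a gene did not share 1 pattern. Of the 9 members higher in M1 cells 7 fell in op/op cells (Slc2a1, Slc2a6, Slc16a3, Pfkl, Pfkfb3, Tpi1 and Hif1a), and of the 4 lower in M1 cells 3 also fell in op/op cells (Pfkfb4, Taldo1 and Tkt). Over all genes called in M1 against M2 and tested in both comparisons, 46.0% of the 2093 higher in M1 and 48.9% of the 2434 lower in M1 were lower in op/op cells. Whether the members higher and those lower in M1 cells differed in op/op cells was not tested.

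Renal cells had lower levels than bone marrow macrophages for most members. Averaged over op/op and WT, 28 of 33 were lower and 4 higher than the average of M1 and M2, where 33.7% and 48.7% of the 28261 genes tested were called lower and higher, 82.4% in all. The median difference was -1.69, against 0.37 over all genes, and in 21 members every renal array lay below every bone marrow array (19.8% of all genes). Slide and tissue cannot be told apart here, since no slide held both. With slide as a random block 25 members were lower and 3 higher (7438 and 10377 of the 28261 genes). Tissue, culture and amplified input also differ between the groups, and renal arrays carried 26.3 to 257 of summed proximal tubule signal, against 2.91 to 11.1 on the bone marrow arrays. Fibroblast and mural cell markers summed to 6.37 to 9.57 on renal and 54.7 to 111 on bone marrow arrays (6 of 7 lower in renal cells, 1 higher). Of 11 macrophage markers 9 were lower in renal cells and 2 higher. The part of these cell types in the differences was not tested.

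The 7 genes counted with the payoff steps, Tpi1 among them, were all lower in renal cells and all separated, with a median difference of -2.77. Pgk1 stood between 1.19 and 3.23 on the 6 renal arrays and between 5.41 and 6.14 on the 6 bone marrow arrays (-3.57 ± 0.22, 11.9-fold, limma adjusted p = 7.21e-08). Its probe is placed on chromosome 3, and the probe on the X chromosome, where the gene lies, gave -3.64. These probes share most of their sequence and are not independent. The only Eno1 probe is placed on chromosome 2 and its gene on chromosome 4. Pkm was between 1.69 and 3.73 on renal and between 5.19 and 6.05 on bone marrow arrays (-3.07 ± 0.20, 8.39-fold). Hk2 (-2.89 ± 0.23), Hk3 (-2.54 ± 0.14), Pgd (-2.78 ± 0.18) and G6pdx (-2.77 ± 0.21) were lower by similar amounts. Slc2a6 (-0.40), Slc2a3 (-0.52), Pfkfb4 (-0.39) and Taldo1 (-0.52) had the smallest called differences, and each lost its call in at least 1 alternative. The Hif1a probe that stands for the gene gave -2.82 ± 0.19 and the second probe 0.21, so both size and direction for Hif1a depend on the probe.

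In 3 enzyme families and in the lactate carriers, 1 form was higher in renal cells and another lower. Ldhb was at 1.91 to 3.58 on the renal arrays, against -0.38 to 0.24 on the bone marrow arrays (2.84 ± 0.24, 7.16-fold, limma adjusted p = 6.20e-07), while Ldha was at 3.68 to 4.80 on the renal and 6.45 to 6.77 on the bone marrow arrays (-2.35 ± 0.10, limma adjusted p = 9.13e-09). Aldoc was higher (1.58 ± 0.15) and Aldoa lower (-1.69 ± 0.16). Pfkm was higher (0.82 ± 0.14) and Pfkl (-2.36 ± 0.21) and Pfkp (-1.52 ± 0.15) lower, and Slc16a1 was higher (1.18 ± 0.26) and Slc16a3 lower (-0.92 ± 0.11). Renal and bone marrow arrays overlapped for Pfkm, Slc16a1 and Slc16a3. Slc16a1 lost its call with slide as a random block (0.98, limma adjusted p = 0.0654). Whether tubule RNA carried the higher forms was not tested. All 6 tested gluconeogenesis genes were higher in renal cells, among them Pck1 and Fbp1, which kidney tubule cells express and which were well above background on all 6 renal arrays. Pck1 was so on 1 of 3 M1 and 1 of 3 M2 arrays and Fbp1 on 3 of 3 M1 and 0 of 3 M2 arrays, and no size is given for them. Of 21 other glycolysis genes 10 were higher in renal cells and 7 lower.

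**Figure D5:**
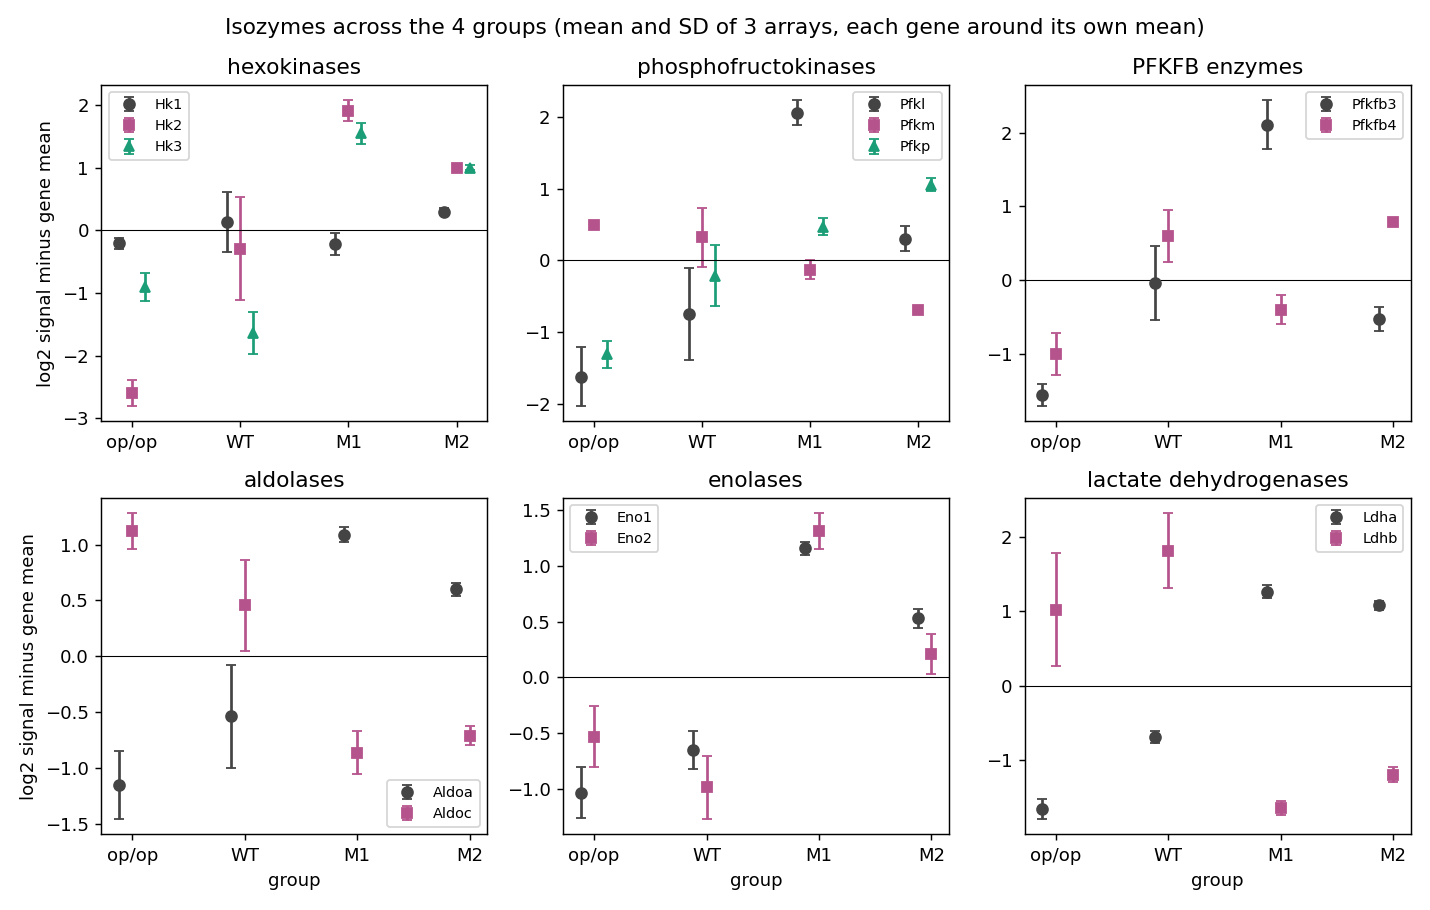
Isozymes of 6 enzyme families in op/op, WT, M1 and M2 cells, as log2 signal minus the mean of the gene over 12 arrays (vertical axes). Symbols are means of 3 arrays with SD. Ldhb, Aldoc and Pfkm were higher in renal cells, and Ldha, Aldoa, Pfkl and Pfkp lower, and Pfkfb3 and Pfkfb4 were split between M1 and M2.

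The order M1, M2, WT, op/op from high to low held for Slc2a1, Hk2, Gpi1, Pfkl, Aldoa, Ldha, G6pdx, Pgd, Hif1a, both pyruvate dehydrogenase kinases and every payoff gene but Eno2. For Hif1a it held on the probe that stands for the gene and not on the second, which had means of -1.56 in op/op, -0.69 in WT, -0.80 in M1 and -1.87 in M2 cells. The other Ldha probes had M2 above M1 (means of 2.08 against 1.86 and 5.06 against 4.97). So did a further Gpi1 probe (4.55 against 4.52). Many M1 and M2 neighbours in this order did not pass in M1 against M2, such as G6pdx, Pgd, Ldha, Gpi1 and Pdk1. Of these, Ldha alone had separated M1 and M2 arrays on the probe that stands for the gene. Op/op cells had the lowest mean for 25 of the 33 members and the highest for 3 (Slc16a1, Aldoc and Pfkm). WT cells had the highest mean for 1, Ldhb, and the WT mean lay between those of M1 and M2 cells for Slc2a3, Slc2a6, Hk1, Pfkfb3, Pfkfb4, Slc16a3 and Taldo1.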

How the data were processed

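RNA of 12 samples was extracted, amplified (Ovation PicoSL WTA V2), labelled with Cy3 and hybridized, per the labels' protocols. The authors deposited the scanner intensity of each spot (gProcessedSignal, background subtracted), made with Agilent Feature Extraction 10.7.3.1 per the submitters' processing notes, and a table of log2 values that correlates at r = 1.00 with the log2 scanner signals on each array. The medians of its columns lie between -1.87 and -2.46, it is scaled to the 75th percentile as far as the values show, and it was used as an alternative. Coordinates of probes follow the scanner files (mm9), and mm9 gene models were not used here.

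From these, log2 of the processed signal minus the 75th percentile of each array was computed. Control spots and 30 probes with outlier spots were left out, and no spot was saturated. Of 55681 probes, 42938 were kept, those that some group measured well above background on all its arrays, and the brightest probe (mean over 12 arrays) stood for a gene. Names came from the accession (27509), symbol (3549) or synonym (404), or from the file (24219). limma 3.58.1 (R 4.3.3) fitted the 4 group means on the 12 arrays together, with no covariate, and p-values were adjusted by Benjamini and Hochberg over all genes tested and called under 0.05. Random blocks used statmod 1.5.0. Errors beside differences are SEs of the fit, n = 3 arrays per group. Probes well above background made up 63.1% to 68.8% on op/op, 76.1% to 79.3% on WT, 72.6% to 75.1% on M1 and 64.4% to 65.1% on M2 arrays. The fit was tested on simulated data. Tables were made with pandas 2.3.3 and numpy 2.4.6 under Python 3.11.15, and figures with matplotlib 3.10.9.

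All 34 members are named, with up to 4 genes of each other list by smallest p. Some genes that this rule takes in are not reported here. The members, the pathway lists and the cell type markers were chosen with earlier results of these data known. Alternatives were normexp (offset 50), quantile normalization, centring on the median of genes on all 12 arrays, the deposited table, no filter, a filter on all 12 arrays, the mean of all probes, probes without saturated spots, a fit of only the compared groups, trended and robust eBayes, slide as a term or random block, a 2-fold threshold, replicate numbers as a block and leaving out each array. The brightest probe on the chromosome of the gene was added after the data had been seen.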

Additional observations from a re-analysis of the deposited data

How the results depend on the processing

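Of the members called in op/op against WT, 12 of 24 lower and 0 of 3 higher kept their calls in every alternative apart from the 2-fold threshold, with 7 of 9 higher and 3 of 4 lower in M1 against M2 and 3 of 4 higher and 24 of 28 lower in renal against bone marrow. With only the 2 groups in the fit, op/op against WT had 10359 genes called (16297 in the fit of all arrays), with 0 members higher and 15 lower, and 9725 genes in M1 against M2 (4857), with 17 members higher and 8 lower, since the renal and bone marrow arrays no longer share 1 estimate of the spread. At 2-fold as well, 7206 genes in op/op against WT, 2846 in M1 against M2 and 15460 in renal against bone marrow passed, and 1 member was higher and 12 were lower in op/op against WT. Of the members that otherwise kept their calls, Slc2a6, Gpi1 and Ldha (op/op against WT), Tkt (M1 against M2) and Pfkm and Slc16a3 (renal against bone marrow) differed by less than 2-fold. With the brightest probe on the chromosome of the gene, which tests fewer genes, op/op against WT had 10475 calls and renal against bone marrow 14951, and Hk1 turned to 0.91 in M1 against M2. With normexp, Pdk1 turned to 0.18 in op/op against WT. The cause was not tested. Leaving out single arrays gave 11989 to 17597 genes, 1 to 4 members higher and 18 to 27 lower in op/op against WT. It gave 3409 to 3617 genes, 7 to 8 members higher and 3 to 4 lower in M1 against M2, and 22560 to 23941 genes, 4 members higher and 26 to 28 lower in renal against bone marrow. Quantile normalization put the median of all genes at 0.07 in op/op against WT (0.19 in the reported fit), with 3 members higher and 25 lower, and at 0.07 in renal against bone marrow (0.37 in the reported fit). Deviations of same-numbered op/op and WT arrays correlated at -0.16, 0.07 and -0.06 and those of M1 and M2 arrays at -0.07, 0.14 and 0.08. Those of differently numbered op/op and WT arrays correlated between -0.27 and 0.29. No pairing by replicate number was seen, but so few correlations cannot exclude it. With the replicate number as a block, op/op against WT had 14772 calls (3 members higher, 22 lower), 3885 in M1 against M2 (8 higher, 3 lower) and 21920 in renal against bone marrow (4 higher, 27 lower). The slide could not be a term in M1 against M2, where 1 slide held all arrays, nor in renal against bone marrow, where it was a random block (17815 genes, 3 members higher, 25 lower). No spot was saturated, so leaving out saturated probes gave the reported values, and for renal against bone marrow the compared groups are all groups. Pdk1, Pdk3 and Rpia are limited by signals not above background on 1 or more op/op arrays.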
